A study of Homo sapiens with 2 samples.

Results

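Transcript levels of 6 genes that are best known from blood cells, SIGLEC15, LAPTM5, CD83, LCP1, FMNL1 and LIMD2, were measured in a human kidney cell line. They were picked because they had fewer counts in the library labelled Ad-Bmal1 than in the library labelled Ad-GFP, so that their direction is the criterion of choice and no finding. All 6 were found among the 58302 gene identifiers in the table, each under 1 identifier. The cells were HK-2, an immortalised human line of the kidney's proximal tubule, kept in 10% fetal bovine serum and at passages 7 to 11. For 24 h one culture was exposed to an adenovirus with the Bmal1 CDS, the coding sequence of a clock transcription factor, and the other to an adenovirus with GFP, a fluorescent marker. Both groups thus carried an adenoviral vector, and no uninfected culture was analysed here. The labels spell out the line's name as human kidney 3 for the Ad-Bmal1 library and as human kidney 2 for the Ad-GFP library.

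There was 1 library per group, so no value below has a replicate check, no p-value is given and each difference describes these 2 libraries. The library labelled Ad-Bmal1 held 20051735 counts and the library labelled Ad-GFP held 20032652, and 13231 genes reached 1 CPM, a count scaled by TMM to the library's size, in at least 1 of them. BMAL1 itself, which the Ad-Bmal1 vector should raise, had 133 counts in the library labelled Ad-Bmal1 and 204 in the library labelled Ad-GFP, a ratio of 0.667 (95% counting interval 0.532 to 0.834). Whether RNA of the vector was counted as BMAL1 is not known, and where it was, it would look like that of the cell's own gene. As counted, BMAL1 did not bear out the labels, which does not show that they are wrong, and all directions below are given by label. PAX8, a kidney transcription factor gene, and GGT1, a brush border enzyme gene, had 8529 and 4881 counts in the library labelled Ad-Bmal1, against 6502 and 4473 in the library labelled Ad-GFP. Of 10 proximal tubule markers, 4 were measured, none met the 2-fold rule given below, and the endocytic receptor gene LRP2 was listed at 0 in both libraries. Of 7 genes listed for epithelial lines, 6 were measured and none met that rule. Over all measured genes, 1.74% met it as lower and 1.13% as higher. Ratios were 0.953 (0.935 to 0.972) for the keratin KRT8 and 0.754 (0.738 to 0.769) for vimentin, VIM. The gene left unmeasured was that of E-cadherin, CDH1, with 4 counts in the library labelled Ad-Bmal1 and 1 in the library labelled Ad-GFP.

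The genes act at different places in a blood cell. SIGLEC15 encodes a lectin of the cell surface that binds sialic acid and signals in osteoclasts through the adaptor DAP12. LAPTM5 encodes a lysosomal membrane protein that promotes the breakdown of antigen receptors in lymphocytes. CD83 encodes a surface protein of mature dendritic cells and activated B cells that keeps MHC class II and CD86 from being degraded, and its gene is a textbook target of NF-kB. LCP1 encodes L-plastin, the actin-bundling protein of leukocytes, and FMNL1 encodes a formin, a protein that builds unbranched actin filaments in macrophages and lymphocytes. LIMD2 encodes a small protein with a LIM domain that binds the integrin-linked kinase ILK. Several of them are also known from tumour-derived epithelial cells, in which LCP1 in particular is often switched on.

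The promoters are shown for the gene with the largest difference and for 3 genes whose windows held a motif searched for. Each runs 5′ to 3′ on the gene's strand from 250 bases before to 30 bases after the start that RefSeq gives on GRCh38.p14. Capitals mark the matches described below them.
SIGLEC15, chr18:45825425-45825704, strand +: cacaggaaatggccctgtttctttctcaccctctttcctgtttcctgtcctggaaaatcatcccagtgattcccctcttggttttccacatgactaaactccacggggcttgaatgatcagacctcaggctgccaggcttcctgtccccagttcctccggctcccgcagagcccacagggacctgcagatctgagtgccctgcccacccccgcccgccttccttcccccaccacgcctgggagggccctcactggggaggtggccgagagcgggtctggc
CD83, chr6:14117522-14117801, strand +: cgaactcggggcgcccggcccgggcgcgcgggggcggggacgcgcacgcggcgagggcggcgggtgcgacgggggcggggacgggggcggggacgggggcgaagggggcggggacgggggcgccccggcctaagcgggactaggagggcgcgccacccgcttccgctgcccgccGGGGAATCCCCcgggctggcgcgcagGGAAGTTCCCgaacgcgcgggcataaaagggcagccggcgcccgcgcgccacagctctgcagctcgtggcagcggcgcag
LCP1, chr13:46182148-46182427, strand -: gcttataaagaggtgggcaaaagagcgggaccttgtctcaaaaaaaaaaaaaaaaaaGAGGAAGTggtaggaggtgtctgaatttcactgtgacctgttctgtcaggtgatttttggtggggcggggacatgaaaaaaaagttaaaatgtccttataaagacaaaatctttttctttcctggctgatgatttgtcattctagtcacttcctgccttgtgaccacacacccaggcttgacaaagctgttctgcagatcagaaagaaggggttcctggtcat
FMNL1, chr17:45221635-45221914, strand +: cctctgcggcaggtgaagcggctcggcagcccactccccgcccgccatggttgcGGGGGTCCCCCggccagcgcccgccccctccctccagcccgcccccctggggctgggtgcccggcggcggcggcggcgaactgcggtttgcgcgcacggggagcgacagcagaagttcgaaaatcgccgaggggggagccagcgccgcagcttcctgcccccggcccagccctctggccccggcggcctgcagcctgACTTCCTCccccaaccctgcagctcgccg

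A set of 4 motifs was searched on both strands of 35116 such RefSeq windows of 280 bases. They were the E-box CACGTG bound by CLOCK and BMAL1, the ETS sequence GAGGAAGT, the AP-1 site TGANTCA and the NF-kB consensus. No window of the 6 genes held the E-box or the AP-1 site, which were found in 6.94% and 7.35% of all windows. The CD83 window shown held the NF-kB motif in 2 separate places, starting 76 and 50 bases before the start, and 7.28% of all windows held it at least once. The first of these is a run of 11 bases that holds 3 overlapping matches, counting both strands. A second RefSeq start of CD83, which lies upstream on the same chromosome, had no match of the 4 motifs. The LCP1 window held the ETS sequence 193 bases before the start, and the FMNL1 window held it on the other strand right after the start, against 2.45% of all windows. The FMNL1 window also held overlapping NF-kB matches from 196 bases before the start. The windows of SIGLEC15, LAPTM5 and LIMD2 held none of the 4. Base composition set the promoters apart as well, with 48 CpG pairs in the LIMD2 window and 49 in the CD83 window shown, 31 for FMNL1, 8 for SIGLEC15, 4 for LAPTM5 and 2 for LCP1, and a median of 13 over all windows.

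SIGLEC15 (ENSG00000197046, chromosome 18, 45825512 to 45844080, GRCh38) stood farthest from equality. It had 53 counts in the library labelled Ad-Bmal1, against 450 in the library labelled Ad-GFP. Scaled to depth, the library labelled Ad-Bmal1 had 2.67 CPM and the library labelled Ad-GFP 22.2, a level 8.30-fold lower with Ad-Bmal1 (95% counting interval 6.23 to 11.3). Only 2 of the 13231 measured genes had a lower ratio. In a bulk library, fewer cells that express a gene and less of its RNA in each cell cannot be told apart.

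LAPTM5 (ENSG00000162511, chromosome 1, 30732469 to 30757820) came next. It had 65 counts in the library labelled Ad-Bmal1 and 258 in the library labelled Ad-GFP, or 3.28 and 12.7 CPM. The level was lower by 3.88-fold with Ad-Bmal1 (2.94 to 5.17), and its ratio was number 22 from the lowest of all measured genes. Its interval did not overlap that of SIGLEC15.

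CD83 (ENSG00000112149, chromosome 6, 14117256 to 14136918) was the most abundant of the 6. It had 683 counts in the library labelled Ad-Bmal1 and 1606 in the library labelled Ad-GFP, or 34.5 and 79.2 CPM, and was 2.30-fold lower (2.10 to 2.52). LIMD2 (ENSG00000136490, chromosome 17, 63695902 to 63701172) had 603 and 1378 counts in the Ad-Bmal1 and Ad-GFP libraries, or 30.4 and 68.0 CPM, and was 2.23-fold lower (2.03 to 2.46). These 2 rest on the deepest counts and so have the narrowest counting intervals of the 6.

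The actin regulators had lower counts. FMNL1 (ENSG00000184922, chromosome 17, 45221444 to 45247320) had 204 counts in the library labelled Ad-Bmal1 and 495 in the library labelled Ad-GFP, or 10.3 and 24.4 CPM, and was 2.37-fold lower (2.01 to 2.81). LCP1 (ENSG00000136167, chromosome 13, 46125920 to 46211871) had 85 and 196 counts in the Ad-Bmal1 and Ad-GFP libraries, or 4.29 and 9.67 CPM, and was 2.25-fold lower (1.74 to 2.94). The intervals of CD83, LIMD2, FMNL1 and LCP1 all overlapped one another, so their sizes of difference were not separated at this depth. The intervals express counting error alone and hold nothing of how cultures vary.

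**Figure D1:**
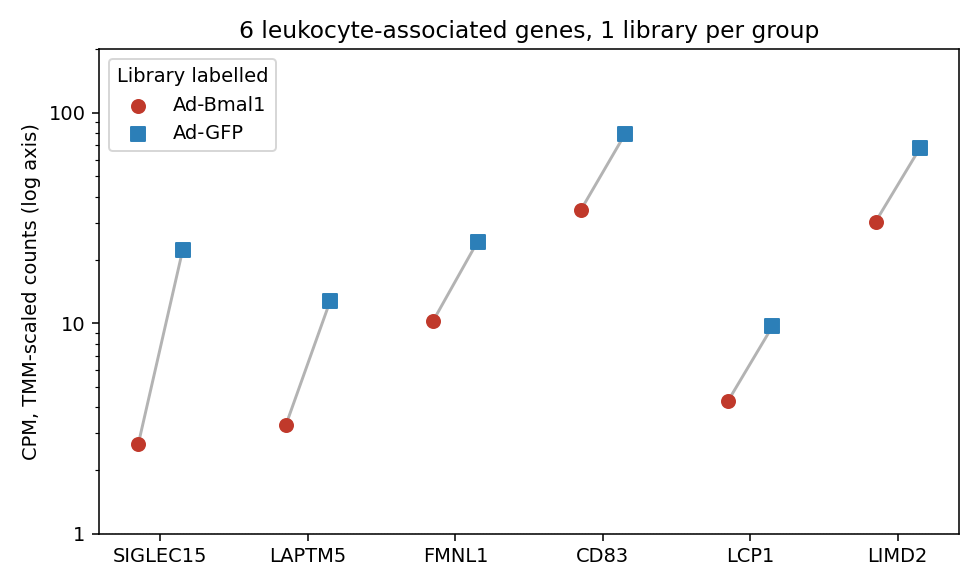
Level of each of the 6 genes in CPM (TMM-scaled counts, log axis) in the library labelled Ad-Bmal1 (red circles) and in the library labelled Ad-GFP (blue squares), 1 library per group, with a grey line joining the values of 1 gene. Genes are ordered by ratio from SIGLEC15, 2.67 against 22.2 CPM, to LIMD2, 30.4 against 68.0 CPM.

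All 6 passed the filter on low values, and did so in each library on its own. All 6 also differed by at least 2-fold with a counting interval that excluded equality, which 1.74% of the measured genes did in the same direction. Since the genes were chosen from this same contrast, nothing is read from that count. Among the genes with 1000 or more counts in all, where CD83 and LIMD2 belong, 0.247% met the rule as lower. SIGLEC15, LAPTM5, FMNL1 and LCP1 have fewer counts, where the rule was met more often, so that share is not theirs. Nothing is read from it for CD83 and LIMD2 either, which were chosen in the same way. The median log2 ratio of the 6 genes was -1.22, with a range from -3.05 to -1.16, beside a median of 0.00 over all measured genes. Summed over the 6 genes, 1693 counts in the library labelled Ad-Bmal1 stood against 4383 in the library labelled Ad-GFP.

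**Figure D2:**
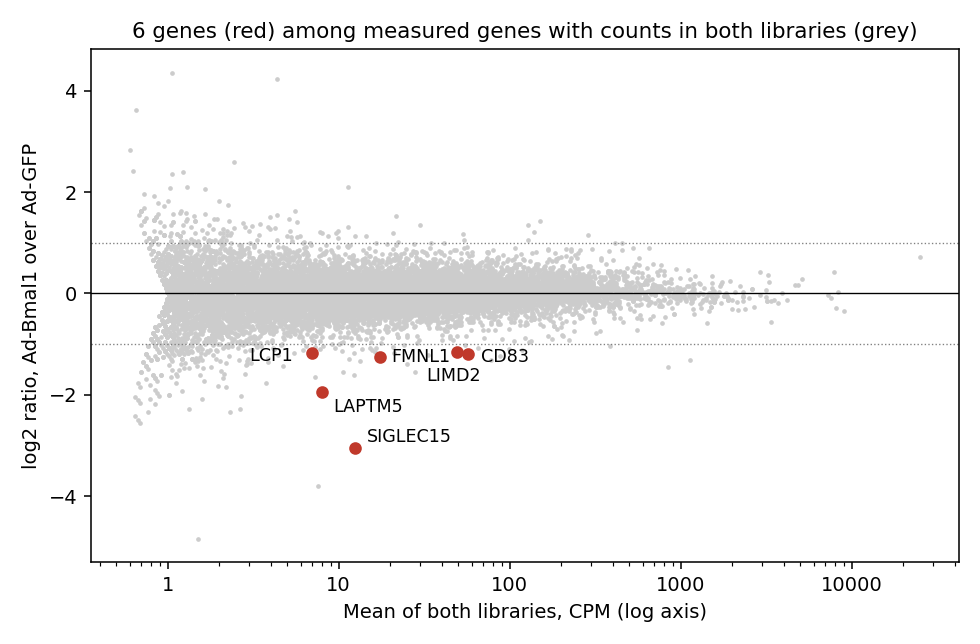
Log2 ratio of each measured gene with counts in both libraries, Ad-Bmal1 over Ad-GFP, against its mean level in CPM (log axis), with the 6 genes in red and dotted lines at 2-fold. SIGLEC15 at -3.05 and LAPTM5 at -1.96 lie apart from the other 4, which lie between -1.25 and -1.16.

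Levels of different genes were compared per kilobase of the longest annotated transcript, taken among protein-coding transcripts where a gene had any. In the library labelled Ad-Bmal1, CD83 had the highest level per length at 14.0 CPM per kb, followed by LIMD2 at 9.53, FMNL1 at 2.51, SIGLEC15 at 1.70, LAPTM5 at 1.48 and LCP1 at 1.09. In the library labelled Ad-GFP, CD83 had 32.1 CPM per kb, LIMD2 21.3, SIGLEC15 14.1, FMNL1 5.95, LAPTM5 5.72 and LCP1 2.45. SIGLEC15 thus stood below FMNL1 in the library labelled Ad-Bmal1 and above it in the library labelled Ad-GFP, while the order of the other 5 genes was the same in both. By exact Poisson intervals on the counts, SIGLEC15 (1.27 to 2.22 CPM per kb) and LAPTM5 (1.14 to 1.88) were not separated in the library labelled Ad-Bmal1. There LCP1 (0.869 to 1.34) was separated from neither of them, and FMNL1 (2.18 to 2.88) overlapped SIGLEC15 at the edge. FMNL1 (5.44 to 6.50) and LAPTM5 (5.05 to 6.47) were not separated in the library labelled Ad-GFP. CD83 and LIMD2 lay above the median of all measured genes, 5.45 CPM per kb in the library labelled Ad-Bmal1 and 5.48 in the library labelled Ad-GFP, in both libraries. LCP1 lay below it in both, and SIGLEC15, FMNL1 and LAPTM5 lay below it in the library labelled Ad-Bmal1 and above it in the library labelled Ad-GFP, where the intervals of FMNL1 and LAPTM5 included that median.

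Close relatives of 5 of the genes were measured, and none of them met the 2-fold rule. Over all measured genes, 1.74% met it as lower and 1.13% as higher, so a short list with none says little, here and below. The 6 genes were picked for low ratios, so nothing is read from their distance to relatives. For L-plastin, the relatives are PLS3, the plastin of most solid tissues, and PLS1, that of intestinal and other epithelia. PLS3 had 1643 counts in the library labelled Ad-Bmal1 and 1537 in the library labelled Ad-GFP, a ratio of 1.09 (1.02 to 1.17). PLS1 had 206 and 156 counts in the Ad-Bmal1 and Ad-GFP libraries, a ratio of 1.35 (1.09 to 1.67). Both had ratios above 1, whereas that of LCP1 was 0.444 (0.340 to 0.575), and the 3 intervals show PLS1 and PLS3 overlapping each other but not LCP1. Per length, PLS3 was the main plastin of these cells, at 25.3 CPM per kb in the library labelled Ad-Bmal1 and 23.1 in the library labelled Ad-GFP. Of 9 measured actin bundlers and coronins outside the 6 genes, none differed by 2-fold, and the most abundant were the alpha-actinins ACTN4, with a ratio of 1.14 (1.12 to 1.16), and ACTN1, with 0.977 (0.959 to 0.996), and fascin, FSCN1, with 1.11 (1.09 to 1.13).

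Among the formins, 10 relatives of FMNL1 were measured, of which 6 had an interval above 1 and 1 below, beside 23.8% and 21.6% of all measured genes. The nearest relatives went opposite ways, with 723 counts in the library labelled Ad-Bmal1 against 536 in the library labelled Ad-GFP for FMNL2, a ratio of 1.38 (1.23 to 1.55), and 893 against 1134 for FMNL3, a ratio of 0.806 (0.737 to 0.880). DIAPH1, a formin of most tissues, had a ratio of 1.20 (1.15 to 1.26), and INF2 and FHOD1 had ratios of 1.06 (1.02 to 1.11) and 1.11 (1.03 to 1.20). No formin other than FMNL1 met the 2-fold rule, and the median log2 ratio of the 10 was 0.16.

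LAPTM5 has 2 relatives that are found in most tissues. LAPTM4A had 7255 counts in the library labelled Ad-Bmal1 and 8961 in the library labelled Ad-GFP, a ratio of 0.828 (0.803 to 0.855). LAPTM4B had 17050 and 16828 counts in the Ad-Bmal1 and Ad-GFP libraries, a ratio of 1.04 (1.01 to 1.06). Per length LAPTM4A had 207 and LAPTM4B 271 CPM per kb in the library labelled Ad-Bmal1, against 250 and 262 in the library labelled Ad-GFP, far above LAPTM5. NEDD4, the ubiquitin ligase with which LAPTM5 works, had a ratio of 1.29 (1.10 to 1.53) on 325 counts in the library labelled Ad-Bmal1 and 257 in the library labelled Ad-GFP.

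The partners of LIMD2 and the LIM proteins listed with it numbered 13 measured genes. None met the 2-fold rule, beside 1.74% as lower and 1.13% as higher of all measured genes. The median log2 ratio of the 13 was 0.07. LIMA1, an actin-binding LIM protein, had 777 counts in the library labelled Ad-Bmal1 and 445 in the library labelled Ad-GFP, a ratio of 1.79 (1.59 to 2.01), the farthest from 1 in this list. The focal adhesion gene ZYX had a ratio of 1.33 (1.28 to 1.38), AJUBA 0.985 (0.948 to 1.02) and TRIP6 1.02 (0.965 to 1.07). ILK had 51 and 54 counts in the Ad-Bmal1 and Ad-GFP libraries, but it overlaps another gene, and how the counting treated such reads is not known.

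Of the other 13 Siglec genes listed, 7 were listed at 0 in both libraries. CD22, the Siglec of B cells, was the single one measured besides SIGLEC15, with 84 counts in the library labelled Ad-Bmal1 and 71 in the library labelled Ad-GFP, a ratio of 1.21 (0.872 to 1.68). The adaptor through which SIGLEC15 signals was at the limit of detection, with 1 count of TYROBP, the gene of DAP12, in the library labelled Ad-Bmal1 and 0 in the library labelled Ad-GFP. HCST, the gene of the related adaptor DAP10, and SYK, the kinase downstream, were listed at 0 in both, which allows up to 0.151 CPM in the library labelled Ad-Bmal1 and 0.148 in the library labelled Ad-GFP by a limit of 3 counts.

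**Figure D3:**
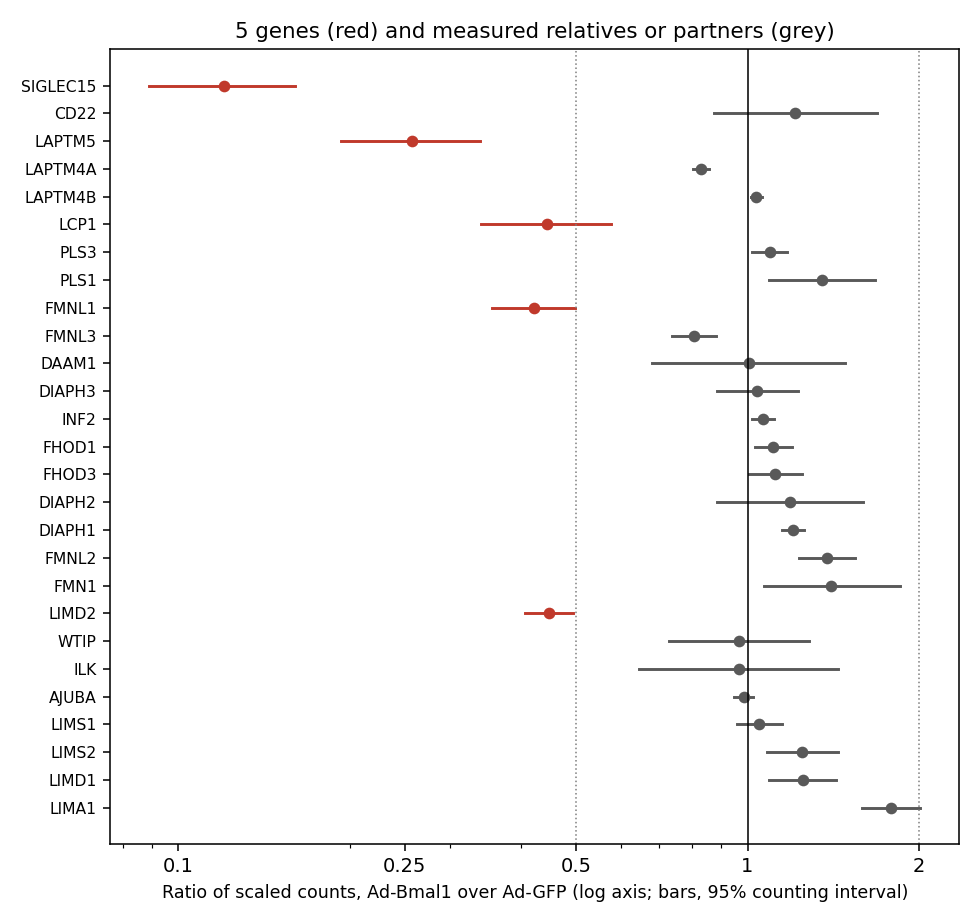
Ratio of scaled counts, Ad-Bmal1 over Ad-GFP (log axis), with 95% counting intervals, for 5 of the genes (red) each followed by measured relatives or partners (grey), with dotted lines at 2-fold. Red points lie between 0.121 for SIGLEC15 and 0.448 for LIMD2, and grey points between 0.806 for FMNL3 and 1.79 for LIMA1.

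Genes that act with CD83 in antigen presentation had 5 measured members of 9 besides CD83. CD40, a receptor that activates antigen-presenting cells, had 2265 counts in the library labelled Ad-Bmal1 and 3283 in the library labelled Ad-GFP, a ratio of 0.706 (0.669 to 0.745). CD74, the invariant chain of MHC class II, had 885 and 1127 counts in the Ad-Bmal1 and Ad-GFP libraries, a ratio of 0.803 (0.735 to 0.878). Of the 5, 4 had an interval below 1, as did 21.6% of all measured genes, and none met the 2-fold rule. The interval of CD274, the gene of PD-L1, included 1, at a ratio of 0.964 (0.773 to 1.20). CD80 and CD86, the ligands of CD28, were listed at 0 in both libraries. HLA-DRA, the gene of an MHC class II chain, had 0 counts in the library labelled Ad-Bmal1 and 1 in the library labelled Ad-GFP.

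The NF-kB proteins and their inhibitors, listed because CD83 is a known target, had 9 measured genes and a median log2 ratio of -0.02. NFKBIE, which encodes the inhibitor IkB epsilon, met the 2-fold rule, with 151 counts in the library labelled Ad-Bmal1 and 389 in the library labelled Ad-GFP, a ratio of 0.397 (0.327 to 0.481). The most abundant members were NFKBIA, the gene of IkB alpha, with a ratio of 0.875 (0.839 to 0.912), and NFKB2 with 1.09 (1.04 to 1.14). The subunit genes RELA and NFKB1 had ratios of 1.12 (1.05 to 1.20) and 0.889 (0.817 to 0.967), on opposite sides of 1.

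Many but not all genes of the blood cell lists were at or near 0 in both libraries. PTPRC, the gene of the pan-leukocyte antigen CD45, was listed at 0 in both, as were CD53 and CD48. The T cell receptor chains CD3D, CD3E and CD3G, the B cell marker MS4A1, the macrophage markers LYZ and CD163 and the neutrophil genes MPO and S100A8 were listed at 0 as well. SPI1, the gene of the myeloid transcription factor PU.1, had 0 counts in the library labelled Ad-Bmal1 and 1 in the library labelled Ad-GFP. Over 6 lists of blood cell genes, 111 genes besides the 6 were in the table, 58 of them were listed at 0 in both libraries and 16 were measured. Genes of the lists well above 0 included DOCK2, an activator of Rac, with 681 counts in the library labelled Ad-Bmal1 and 789 in the library labelled Ad-GFP. The phosphatase gene PTPN6 had 602 and 665 counts in the Ad-Bmal1 and Ad-GFP libraries, and CSF1R, the receptor of macrophage growth factor, had 407 and 433. The integrin gene ITGB2 had 164 and 246 counts in the Ad-Bmal1 and Ad-GFP libraries, and the tetraspanin gene CD37 had 67 in each.

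Among those 16 measured blood cell genes, 3 met the 2-fold rule as lower in the library labelled Ad-Bmal1 and none as higher, beside 1.74% and 1.13% of all measured genes. ALOX5AP, which presents arachidonic acid to 5-lipoxygenase, had 67 counts in the library labelled Ad-Bmal1 and 155 in the library labelled Ad-GFP, a ratio of 0.442 (0.327 to 0.593). FERMT3, the kindlin of blood cells, had 20 and 47 counts in the Ad-Bmal1 and Ad-GFP libraries, a ratio of 0.435 (0.244 to 0.749). LCK, a T cell kinase, had 8 and 22 counts in the Ad-Bmal1 and Ad-GFP libraries, and reached the minimum only in the library labelled Ad-GFP.

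In the pan-leukocyte list, which gave 12 of the 16, the median log2 ratio was -0.47, and 8 intervals lay below 1 and none above, where 21.6% and 23.8% of all measured genes did. Of the 6 measured genes listed for epithelial lines, 5 had an interval below 1 and 1 above, with a median of -0.20. A lean to ratios below 1 was thus not particular to the blood cell genes. The most abundant genes of the pan-leukocyte list were CYBA, a subunit of the NADPH oxidase, with a ratio of 0.960 (0.943 to 0.978), and RAC2, a small GTPase of blood cells, with 0.701 (0.676 to 0.727). The summed level of the list was 1547 CPM in the library labelled Ad-Bmal1 and 1736 in the library labelled Ad-GFP, and CYBA with RAC2 made up most of it. The T and NK cell markers summed to 1.01 CPM in the library labelled Ad-Bmal1 and 2.02 in the library labelled Ad-GFP, over 16 genes. The myeloid and dendritic markers summed to 21.6 and 22.4 CPM in the libraries labelled Ad-Bmal1 and Ad-GFP over 21 genes, nearly all of it from CSF1R, with a ratio of 0.962 (0.838 to 1.10).

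The B cell markers summed to 4.49 CPM in the library labelled Ad-Bmal1 and 3.85 in the library labelled Ad-GFP, the platelet and red cell markers to 2.02 and 2.32, chiefly from ITGA2B with 37 and 42 counts, and the granulocyte and mast cell markers to 0 and 0.345, in the same order. SIGLEC15 had 2.67 and 22.2 CPM in the libraries labelled Ad-Bmal1 and Ad-GFP, and CD83 34.5 and 79.2. The pan-leukocyte list summed to 1547 and 1736 CPM in the same order. These CPM are not per length, so they do not rank single genes against the lists. The part of blood cells in the difference was not tested beyond these levels.

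**Figure D4:**
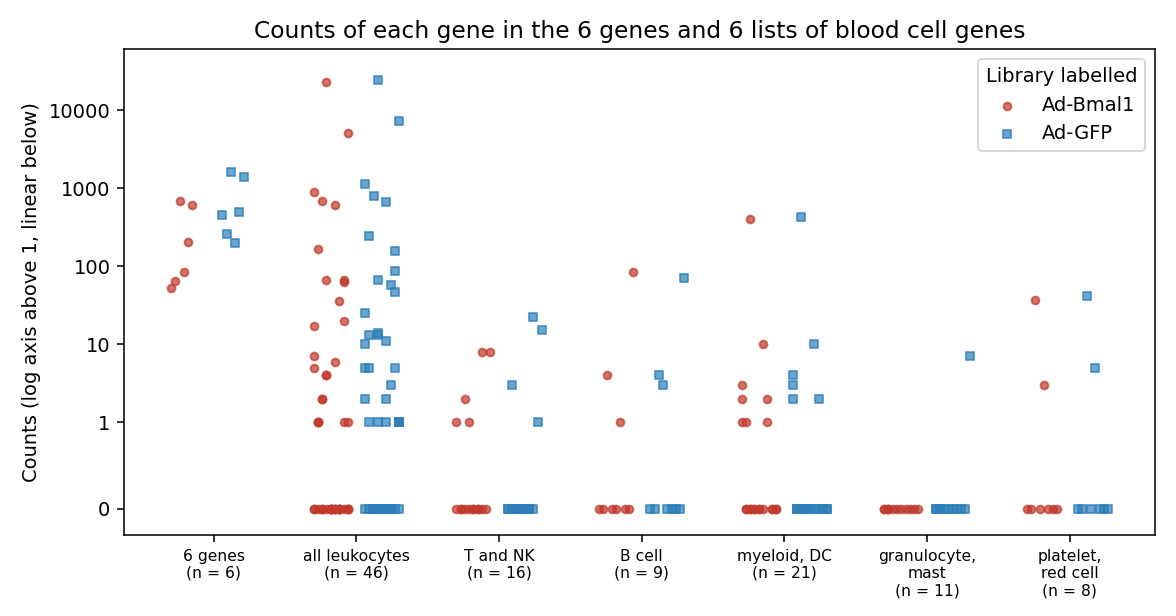
Counts of each gene (log axis above 1, linear below) in the library labelled Ad-Bmal1 (red circles) and in the library labelled Ad-GFP (blue squares), for the 6 genes and for 6 lists of blood cell genes with the 6 genes left out. Most listed genes lie at or near 0 in both libraries, whereas the 6 genes lie between 53 and 683 counts in the library labelled Ad-Bmal1 and between 196 and 1606 in the library labelled Ad-GFP.

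Osteoclast genes were looked at because SIGLEC15 is best known there. Of 10 measured, none met the 2-fold rule, which 1.74% of all measured genes met as lower and 1.13% as higher. TNFRSF11A, which encodes RANK, the receptor that drives osteoclast formation, had 85 counts in the library labelled Ad-Bmal1 and 154 in the library labelled Ad-GFP, a ratio of 0.565 (0.428 to 0.741). ACP5, the gene of tartrate-resistant acid phosphatase, had a ratio of 0.948 (0.871 to 1.03). The most abundant genes of the list, ITGB3 and CLCN7, had ratios of 1.54 (1.46 to 1.61) and 1.18 (1.10 to 1.26), and the fusion genes DCSTAMP and OCSTAMP were listed at 0 in both libraries.

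The nearest measured protein-coding genes that do not overlap the 6 genes were taken on either side of each. Their ratios ran from 0.534 to 1.49, and none of these 12 genes met the 2-fold rule as lower, beside 1.74% of all measured genes, so that count says little. EPG5, an autophagy gene 3.53 kb from SIGLEC15, had 482 counts in the library labelled Ad-Bmal1 and 446 in the library labelled Ad-GFP, a ratio of 1.11 (0.970 to 1.26), and SETBP1 on the other side had 0.924 (0.534 to 1.59). MAP3K14, the kinase gene 15.8 kb from FMNL1, had a ratio of 1.10 (0.979 to 1.24), and HEXIM2 0.849 (0.556 to 1.29). For LAPTM5, SDC3 at 112 kb and PTPRU at 1406 kb had ratios of 0.760 (0.720 to 0.802) and 0.694 (0.571 to 0.841). SETBP1 lay 757 kb from SIGLEC15 and HEXIM2 51.4 kb from FMNL1, so a nearest measured gene could be far away.

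For LCP1, ZC3H13 at 73.2 kb had a ratio of 1.49 (1.17 to 1.90) and LRCH1 at 341 kb one of 0.895 (0.788 to 1.01). For CD83, the ratios were 0.976 (0.888 to 1.07) for JARID2 at 1109 kb and 0.534 (0.242 to 1.12) for RNF182 at 137 kb. RNF182 had 12 counts in the library labelled Ad-Bmal1 and 23 in the library labelled Ad-GFP. For LIMD2, CCDC47 at 44.1 kb had a ratio of 1.28 (1.16 to 1.42) and TACO1 at 87.5 kb one of 0.892 (0.811 to 0.981). Each of these 12 intervals, except that of RNF182, lay wholly above the ratio of the member it was taken for. The members were picked for low ratios in this same contrast, so nothing is read from that.

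**Figure D5:**
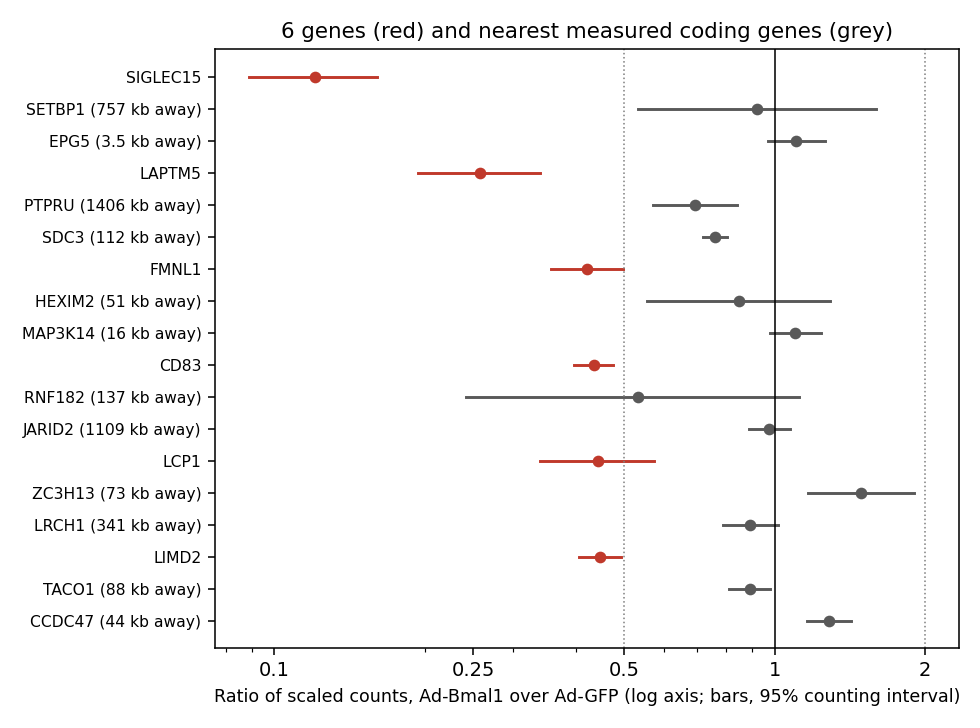
Ratio of scaled counts, Ad-Bmal1 over Ad-GFP (log axis), with 95% counting intervals, for the 6 genes (red) each followed by the nearest measured protein-coding gene on either side that does not overlap it, with its distance (grey). Grey points lie between 0.534 for RNF182 and 1.49 for ZC3H13, and dotted lines mark 2-fold.

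Reads of overlapping genes cannot be assigned with certainty, since the strand setting of the counting is not known. LIMD2 overlaps 2 measured protein-coding genes, MAP3K3 and STRADA. MAP3K3, a kinase gene on the other strand, shares 8.47% of the exon bases of LIMD2 and had 657 counts in the library labelled Ad-Bmal1 and 990 in the library labelled Ad-GFP, a ratio of 0.679 (0.614 to 0.750). STRADA, a pseudokinase gene that shares no exon bases with LIMD2, had 20 and 32 counts in the Ad-Bmal1 and Ad-GFP libraries, a ratio of 0.640 (0.347 to 1.15). Another measured gene, ENSG00000279369, not annotated as protein-coding, shares 3.98% of the exon bases of LIMD2. It had 107 counts in each library, a ratio of 1.02 (0.775 to 1.35). FMNL1 shares 14.6% of its exon bases with the antisense gene FMNL1-AS1 and 8.41% with FMNL1-DT, which had 1 and 5 counts in the library labelled Ad-Bmal1 and 2 and 8 in the library labelled Ad-GFP. No annotated gene shared exon bases with SIGLEC15, LAPTM5, CD83 or LCP1.

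Nearness in level over the 2 libraries was measured as the Euclidean distance in log2 CPM to each other measured protein-coding gene. With 2 values per gene this says only that 2 genes have like levels. RAD21, a cohesin subunit gene, was nearest to CD83 (distance 0.13), with 718 counts in the library labelled Ad-Bmal1 and 1492 in the library labelled Ad-GFP, and RNPEPL1 was the next (0.26). CCZ1B (0.12) and CYS1 (0.13) were nearest to FMNL1, DYNLT3 (0.13) and GIPC3 (0.17) to LCP1, and MT1X (0.18) and RASSF2 (0.23) to LIMD2. LCP1 (0.55) and VAMP2 (0.64) were nearest to LAPTM5. SIGLEC15 had no gene so near, since LAPTM5 (0.85) and COMMD1 (1.12) were the closest to it.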

How the data were processed

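Libraries of polyadenylated RNA were read from both ends for 150 bp, per the labels' protocols, and aligned with HISAT2 to GRCh38, per the submitters' processing notes. The deposited values are raw counts, whole numbers for each Ensembl gene. How the counting was done, with which annotation and strand setting, is not given in the sources used here. Sample titles set the groups. The column headers carry numbers that the labels do not explain and that were left unused. The members and lists were chosen with earlier results of these data known.

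Scaling was by TMM (edgeR 4.0.16, R 4.3.3), with factors of 0.988 for Ad-Bmal1 and 1.01 for Ad-GFP. A gene was measured at 1 CPM in at least 1 library. Ratios, Ad-Bmal1 over Ad-GFP, carry exact 95% Clopper-Pearson intervals, conditional on a gene's total count. A gene met the 2-fold rule if measured, at least 2-fold different and with an interval that excluded 1. A count of 0 allows up to 3 counts. Intervals and limits cover counting error only, and without molecular identifiers reads can be copies of 1 molecule. With 1 library per group there were no residual degrees of freedom, so nothing was tested. The 2-fold rule and the intervals were checked on simulated Poisson counts without TMM scaling. That check holds counting error only and says nothing of how cultures vary. Other steps used Python 3.11.15, numpy 2.4.6, pandas 2.3.3, scipy 1.17.1 and statsmodels 0.14.6. Symbols came from a table of gene names. Coordinates, exons and transcript lengths are GENCODE v29's on GRCh38, with 99.5% of the identifiers found. Promoters are RefSeq's, and all 6 symbols matched.

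Named were the 6 genes, BMAL1, up to 3 abundant relatives per family, genes of other lists that met the rule with up to 2 of the most abundant, the nearest neighbours on either side and the 2 genes nearest in level. Named after their values were seen were the markers and adaptors at or near 0, FMNL2, FMNL3, LIMA1, TNFRSF11A, ACP5, ILK, NEDD4, RELA, NFKB1, CSF1R, ITGA2B, CD274, DOCK2, PTPN6, ITGB2, CD37 and the overlapping genes. MYO1F was also named after its values were seen. Alternatives were other scalings (total counts, size factors of DESeq2 1.42.0, upper quartile, totals that leave out mitochondrial genes and the top 20), a lowess trend on length removed, thinning, no minimum, a minimum of 10 CPM, protein-coding genes alone, other fold sizes and a prior count of 2.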

Additional observations from a re-analysis of the deposited data

How the results depend on the processing

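The 6 ratios stayed below 1 and inside their counting intervals under each alternative scaling, with the length trend removed, after thinning and with a prior count of 2 (42 of 42 values). The libraries had nearly equal totals and scaling factors close to 1. Thinning and the other scalings could therefore change the ratios little, and they say little about depth. No scaling moved the median log2 ratio of all measured genes by over 0.1. The share of genes past the rule depends on the minimum and the fold: 230 were lower and 149 higher, but 382 and 292 with no minimum, 38 and 21 at 10 CPM, 648 and 583 at 1.5-fold, 20 and 12 at 4-fold, and 28 and 23 with an interval wholly beyond 2-fold. Of the 6 genes, 1 met it at 4-fold, SIGLEC15, and 5 met it at 10 CPM or with an interval wholly beyond 2-fold, where LCP1 did not. In the pan-leukocyte list 2 genes were lower in the main setting, 4 with no minimum and 0 at 10 CPM, where its median was -0.25. Of 445 values of the 17 lists under the scalings, the length trend, thinning, the other minima and protein-coding genes alone, 14 moved. No paired analysis was possible because there was 1 library per group. Depth limits SIGLEC15, LAPTM5 and LCP1 most, and variation between cultures is unknown.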
